A study of Mus musculus with 20 samples.

Results

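The first 330 of the 1840 positions that the deposited table lists for mouse 18S ribosomal RNA were examined, by position number alone. They were taken as the start of the 5′ domain of the RNA. The table gives no bases, so this name and the base at each position were not checked. The RNA came from female mouse embryonic fibroblasts of the strain F1:129S1/CastEiJ x 129S1, either untreated or kept in 0.5% dimethyl sulfate (DMS) for 5 min at room temperature. The labels list 20 samples and 4 kinds of reverse transcription, SSIII at 55 °C, AMV at 42 °C, TGIRT-II at 60 °C and one called Zhao. Of these samples, 16 carry a letter, 8 untreated and 8 treated, and 4 carry none, SSIII with or without Mn2+ and with or without DMS. All groups share the cells, the 18S primers and the library protocol.

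The 18S RNA forms the core of the small ribosomal subunit, and the 5′ domain folds into part of the body of that subunit. DMS methylates adenine and cytosine most readily where their pairing face is free, so that bases in helices or under bound protein are usually protected. At a methylated base a reverse transcriptase may leave the template, which is read as a stop, or insert a wrong base and go on, which is read as a mutation. Which of these outcomes prevails is known to depend on the enzyme and on the metal ion.

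For each library and position the table holds a stop fraction and a mutation fraction, given here in percent. The table names an untreated control for every DMS library, which gave 8 pairs, numbered 1 to 8, besides the pairs of the Mn2+ experiment. The library names of the 8 pairs state the treatment but not the enzyme or the letter, so pairs 1 to 8 cannot be assigned to a kind of reverse transcription. Their names fall into 3 sets, pairs 1 to 4, pairs 5 and 6, and pairs 7 and 8. Read numbers are not given, so the depth of each library is unknown and values carry no interval for counting error. The cells were grown on duplicate plates per the labels, and libraries of different enzymes may share an RNA, so p-values measure the spread between pairs of libraries, which may be technical. All tests took the 8 pairs as independent. Pairs that share a kind of reverse transcription were thus counted as separate replicates, and p-values may be too small.

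A pair and a library stood apart in stops. Across the 330 positions, the log2 changes in stops of pair 5 had a median Pearson r of 0.287 with the other pairs (from 0.0917 to 0.451). Pair 6 had a median r of 0.615, and pairs 1, 2, 3, 4, 7 and 8 had medians of 0.747 to 0.824. In mutations pair 5 did not stand apart, with a median r of 0.492 against 0.387 to 0.662 in the other pairs. This r is across positions of the same RNA and is a description only. The untreated library of pair 4 had a mean stop fraction of 0.763% over the 330 positions, against 0.115% to 0.374% in the other 7 untreated libraries. Results without these pairs are given below. The stop fraction was exactly 0 in all 16 libraries at 3 of the 330 positions and the mutation fraction at 2. In the untreated library of pair 2, stops were 0 at 10.0% of the 330 positions and mutations at 12.1%. The medians of the untreated libraries were 1.82% and 1.21%. Mutations at 78 and 327 were among these values of 0. The log2 changes of pair 2 there, 3.88 and 5.17, were the highest of the 8 pairs and depend on the pseudocount.

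DMS raised the stop fraction at a limited number of sites, led by position 142. Of the 330 positions, 39 were higher with DMS at an adjusted p under 0.05 and 0 were lower, by a paired limma fit on log2(percent + 0.1) with Benjamini-Hochberg adjustment over 1776 positions of 18S. That is 11.8% of the 330, beside 8.33% of all positions tested. In the other direction 1.63% of all positions tested were called. The difference between these shares was not tested. An unadjusted p under 0.05 for a fall was seen at 2 of the 330. The rise was seen in all 8 pairs at 24 of the 39 positions, in 7 pairs at 14 and in 6 pairs at 1, position 191. The calls came from these same pairs, so this agreement is a description and no further support. Over the 39, the mean rise ran from 0.0446 percentage points at position 238 to 10.99 at 142, with a median of 0.474. The median log2 change of the 39 called positions was 1.25. The median over all 330 positions was 0.00305, and over all 18S positions it was -0.00819.

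In mutations, 26 of the 330 were higher with DMS at an adjusted p under 0.05 in the same kind of fit over 1840 positions, and 0 were lower. That is 7.88%, beside 4.67% of all positions tested and 0% for falls. An unadjusted p under 0.05 for a fall was seen at 5. The numbers of stop and mutation calls were not tested against each other, and their order depended on the scale, with 27 in either readout at a pseudocount of 1% and 16 stop against 20 mutation calls in percentage points. The rise was seen in all 8 pairs at 24 of the 26 and in 7 pairs at 2, again in the pairs that gave the calls. Mean rises ran from 0.150 points at position 205 to 10.6 at 142, with a median of 0.695 over the 26. The median log2 change of the 26 was 1.58, against 0.0634 over all 330 positions and 0.0745 over all of 18S.

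**Figure D1:**
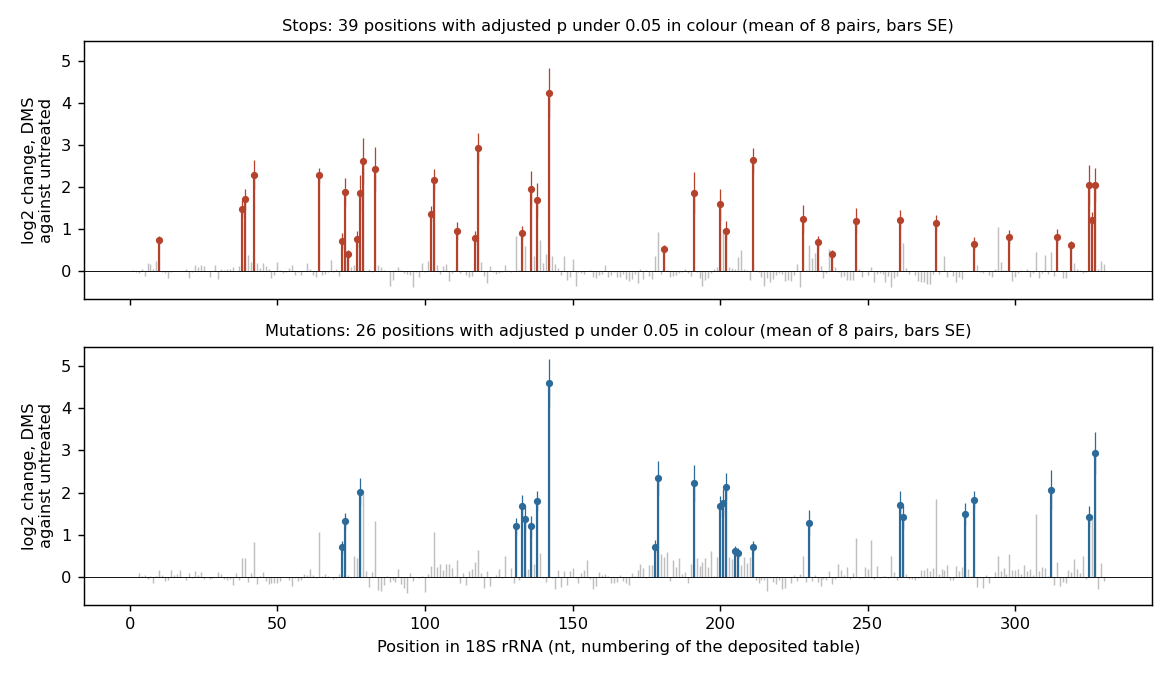
Log2 change of the stop fraction (top) and mutation fraction (bottom) with DMS at positions 1 to 330, on the log2(percent + 0.1) scale, as the mean of 8 pairs. Coloured positions, 39 in stops and 26 in mutations, had an adjusted p under 0.05 and carry their standard error; position 142 is the tallest in both panels.

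Position 142 changed most in both readouts. Its stop fraction in untreated libraries was 0.113% at the lowest, 0.264% at the median and 2.00% at the highest, and with DMS it was 2.83%, 6.20% and 31.7%. Every DMS library lay above every untreated one. The mean difference was 10.99 percentage points ± 11.6 (SD, n = 8 pairs), and the log2 change was 4.24 ± 0.59 (SE, limma, adjusted p = 0.00232). Its mutation fraction was 0.05%, 0.176% and 5.12% untreated and 4.68%, 13.5% and 15.2% with DMS, in the same order. The groups overlapped, because the untreated library of pair 5, at 5.12%, exceeded the DMS library of pair 3. The untreated library of pair 6 was also raised, at 2.51%, against 0.05% to 0.240% in pairs 1 to 4, 7 and 8. The log2 changes in mutations were 1.42 and 2.55 in pairs 5 and 6, and 4.02 to 6.44 in the other pairs. The mutation difference was 10.6 points ± 3.84 (SD, n = 8 pairs), with a log2 change of 4.61 ± 0.57 (SE, limma, adjusted p = 0.00433). Among all 18S positions with values, 142 ranked 3 by mean rise in either readout. It supplied 23.4% of the summed mean rise in stops over the 330 positions and 23.0% of that in mutations.

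Next to it by mean rise in stops came position 118. Its stop fraction was 0.121%, 0.272% and 1.27% untreated (lowest, median and highest) and 1.67%, 3.94% and 7.54% with DMS, without overlap. The rise was 3.71 points ± 1.98 (SD, n = 8 pairs), and the log2 change was 2.93 ± 0.35 (SE, limma, adjusted p = 0.000992). Mutations at 118 had medians of 0.213% untreated and 0.417% with DMS and were not called (limma, adjusted p = 0.31).

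A cluster of responding positions lay between 64 and 83. Stops were called at 64, 72, 73, 74, 77, 78, 79 and 83, which is 8 of the 30 positions from 61 to 90, the highest number in any of the 11 windows of 30 nt. At 83 the stop fraction was 0.206%, 0.325% and 1.32% untreated and 0.769%, 3.07% and 6.05% with DMS. At 79 it was 0.127%, 0.218% and 1.22% untreated and 0.805%, 2.81% and 6.11% with DMS. Both sites rose in 7 of 8 pairs and fell in pair 5, so their groups overlapped. The mean rises were 2.79 points ± 2.43 at 83 (SD, n = 8 pairs; limma, adjusted p = 0.0196) and 2.71 ± 2.50 at 79 (adjusted p = 0.0176). Position 78 was called in both readouts, with a rise of 1.89 points ± 1.78 in stops (adjusted p = 0.0299) and 1.32 ± 0.554 in mutations (adjusted p = 0.0113). Its DMS medians were 1.89% and 1.85%, in that order.

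A small rise of narrow spread was seen at position 64, which was picked with its values in view. Its stop fraction was 0.0119%, 0.0466% and 0.182% untreated and 0.470%, 0.690% and 0.775% with DMS, a rise of 0.598 points ± 0.139 (SD, n = 8 pairs) with the lowest adjusted p of the 330 positions in stops, 0.000234 (limma, log2 change 2.28 ± 0.18 SE).

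Further stop sites lay at 38, 39 and 42 and at 102 and 103, and at none of them did the groups overlap. Position 103 had 0.161%, 0.341% and 0.786% untreated and 1.196%, 1.95% and 3.27% with DMS, with a log2 change of 2.18 ± 0.24 (SE, limma, adjusted p = 0.000777). Position 42 had 0.181%, 0.216% and 0.681% untreated and 0.842%, 1.71% and 3.69% with DMS, with a log2 change of 2.29 ± 0.35 (SE, adjusted p = 0.00362). At 38, 39 and 102, named after their values were seen, the rises were 0.913, 0.719 and 0.775 points, with adjusted p of 0.00168, 0.00232 and 0.00168 (limma). None of these 5 positions was called in mutations over the 8 pairs, but mutations rose at each of them in pairs 5 to 8. With DMS, mutations at 42 were 0.316% to 0.392% in pairs 1 to 4 and 1.55% to 2.09% in pairs 5 to 8. At 103 they were 0.154% to 0.436% and 0.774% to 1.45%, in the same order.

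Without overlap between the groups in stops were 11 positions, namely 10, 38, 39, 42, 64, 102, 103, 118, 142, 211 and 261. They are 3.33% of the 330, close to the 3.21% of all positions tested. In mutations 4 positions had no overlap, 73, 138, 202 and 325, or 1.21% beside 1.09% of all positions tested. No position of the 330 had every DMS library below every untreated one in either readout, beside 0.0563% of all positions tested in stops and 0% in mutations.

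From 178 to 211, mutations were called at 9 positions, 178, 179, 191, 200, 201, 202, 205, 206 and 211, and stops at 181, 191, 200, 202 and 211. No position of this stretch passed the test for a larger response in mutations than in stops. At 202 the mutation fraction was 0.0952%, 0.401% and 1.12% untreated and 1.45%, 2.12% and 2.70% with DMS, which separated the groups fully (rise 1.64 points ± 0.638, SD, n = 8 pairs; limma, adjusted p = 0.0095). Stops at 202 were lower in level, with medians of 0.0927% and 0.248%, and were also called (adjusted p = 0.0282). At 191 mutations had 0.110%, 0.179% and 0.672% untreated and 0.254%, 2.05% and 4.42% with DMS, a rise in all 8 pairs of 1.83 points ± 1.54 (limma, adjusted p = 0.0233). At 179 they had 0.0758%, 0.158% and 1.01% untreated and 0.412%, 2.03% and 2.50% with DMS (limma, adjusted p = 0.0147). Its DMS libraries of pairs 3 and 4 were the lowest and lay within the untreated range. At 201 the rise was 0.882 points ± 0.598, in 7 of 8 pairs (limma, adjusted p = 0.0181).

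Near the end of the region, positions 325 and 327 were called in both readouts and 326 in stops alone. At 327 the mutation fraction was 0%, 0.221% and 0.752% untreated and 0.619%, 3.14% and 3.49% with DMS, the second largest mean mutation rise of the 330 positions at 2.27 points ± 1.26 (SD, n = 8 pairs; limma, adjusted p = 0.0147). Its stop fraction was 0.0424%, 0.182% and 0.433% untreated and 0.323%, 0.675% and 4.42% with DMS (rise 1.36 points ± 1.74; adjusted p = 0.0144). In both readouts the rise was seen in all 8 pairs although the groups overlapped. Further mutation sites were 312 (rise 1.08 points ± 0.744; limma, adjusted p = 0.0374), 283 (0.872 ± 0.500; adjusted p = 0.0156) and 261 (0.824 ± 0.523; adjusted p = 0.0233).

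**Figure D2:**
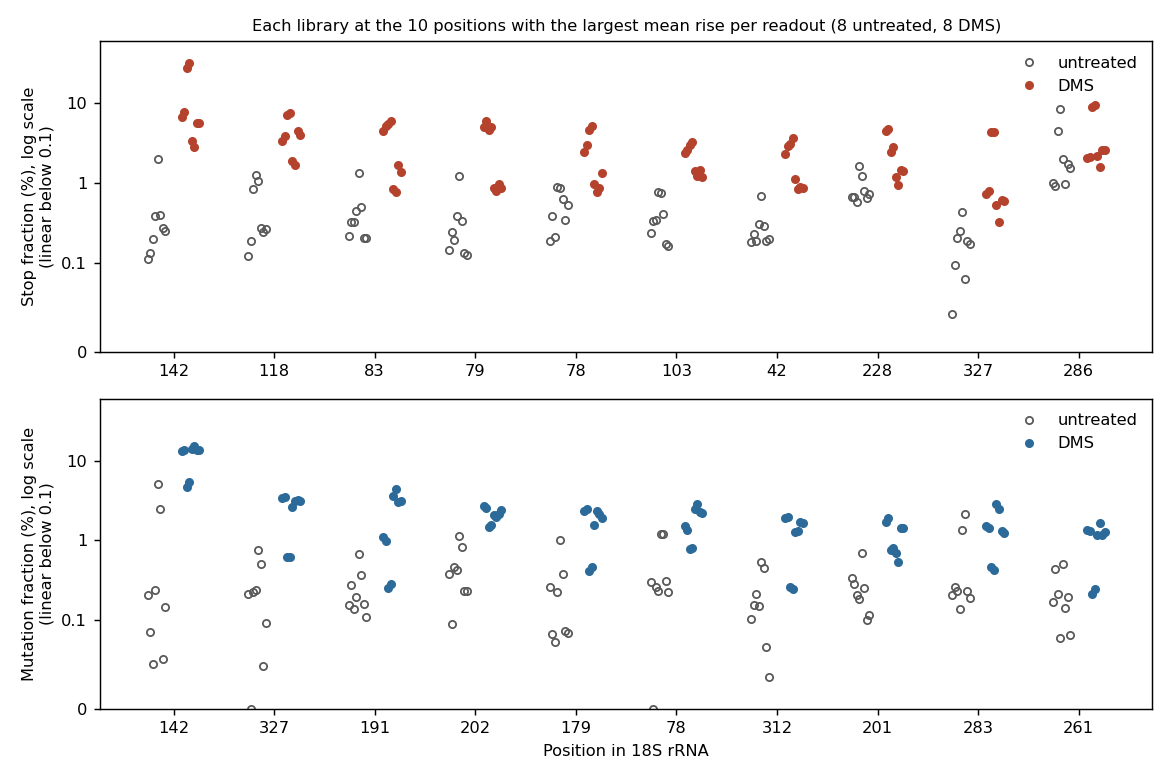
Stop (top) and mutation (bottom) fraction in percent, on a log axis that is linear below 0.1, of each of 8 untreated and 8 DMS libraries at the 10 positions with the largest mean rise per readout. At 142 stops reach 31.7% with DMS and no untreated library exceeds 2.00%, whereas at 286 stops of the groups overlap widely.

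The longest run without a call in either readout was 143 to 177, which is 35 positions, followed by 11 to 37, which is 27. Over 151 to 180 the mean stop difference was -0.0706 points ± 0.203 (SD, n = 8 pairs), higher in 3 pairs, and over 241 to 270 it was -0.112 ± 0.327, higher in 5. The mean mutation difference of these windows was 0.0524 points ± 0.0515, higher in 7 of 8 pairs, and 0.0749 ± 0.0615, higher in 8 of 8, with 2 mutation calls in each. The windows with the largest mean rise were 121 to 150, with 0.448 points in stops and 0.451 in mutations, which holds 142, then 61 to 90 in stops (0.295) and 181 to 210 in mutations (0.249).

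Of the 8 positions with the highest signal without DMS, 4 per readout, 1 was called higher with DMS in that readout and 7 were not called. The highest untreated stop medians were at 286 (1.66%), 172 (1.52%), 99 (1.41%) and 227 (1.37%). Position 227 was the only one at or above 1% in all 8 untreated libraries, from 1.06% to 3.62%. The spread was wide at 172, from 0.111% in pair 1 to 9.15% in pair 4, and at 286, from 0.929% to 8.47%. Pairs 3 and 4 held the highest values at both. The highest untreated stop fractions of all were in the same pairs at position 269, named after its values were seen, with 9.27% in pair 3 and 20.7% in pair 4 against a median of 0.0754% over the 8 untreated libraries. Its DMS libraries reached up to 8.85% (limma, adjusted p = 0.833). DMS medians were 0.977% at 172, 1.77% at 99 and 1.12% at 227, and the differences were not called (limma, adjusted p = 0.477, 0.662 and 0.316). At 227 the stop fraction was lower with DMS in 7 of 8 pairs. At 286 stops rose in all 8 pairs, by 1.30 points ± 1.30 (SD, n = 8 pairs; adjusted p = 0.0273), and mutations by 0.715 ± 0.330 (adjusted p = 0.00365).

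Among mutations, the highest untreated medians were at 260 (3.00%), 289 (2.12%), 272 (1.65%) and 68 (1.07%). Position 260 varied least, from 1.97% to 3.57%, and its DMS libraries lay between 2.31% and 3.13%. At 272 untreated libraries ran from 0.470% to 4.89% and at 68 from 0.724% to 5.37%. DMS changed none of these 4 at the threshold (limma, adjusted p = 0.737, 0.597, 0.303 and 0.97 in the order named). The largest mean mutation fall was at 216, named after its values were seen. The mutation fraction there was lower with DMS in all 8 pairs, with medians of 0.958% and 0.693%, a difference of -0.312 points ± 0.252 that missed the threshold (limma, adjusted p = 0.0566).

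The study's title sets termination against mutation events as readouts of chemical probing. Of the 39 stop calls and 26 mutation calls, 15 positions were shared, which is 38.5% of the stop list and 57.7% of the mutation list. In either readout 50 positions were called. The shared positions are 72, 73, 78, 133, 136, 138, 142, 191, 200, 202, 211, 261, 286, 325 and 327. Over all positions tested, a rise was called at 148 in stops and at 86 in mutations. The overlap of those longer lists was not counted, so whether the shares above are particular to the region was not tested. Being called in 1 readout alone does not show that the readouts differ, so the difference of the log2 changes was fitted within pairs. Stops responded more than mutations at 2 of the 330 positions and less at 1, beside 1.07% and 0.507% of 1776 positions tested. At 118 the difference was 2.30 ± 0.35 log2 (SE, limma, adjusted p = 0.0112), and at 211 it was 1.93 ± 0.37 (adjusted p = 0.0321), both in all 8 pairs. At 211 the stop fraction rose from a median of 0.0861% to 1.32% and the mutation fraction from 0.643% to 1.44%, both called.

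Position 283 was the reverse case, with a difference of -1.49 ± 0.27 log2 (SE, limma, adjusted p = 0.0236) in all 8 pairs. Mutations there rose from a median of 0.232% to 1.37%, while the stop fraction was 0% at the median and at most 0.00147% in any library. Stop fractions this low leave the log2 change in stops to the pseudocount of 0.1%. With a pseudocount of 0.01% the call at 283 was lost. At 211 the call was lost when any pair other than pair 5 was left out (adjusted p up to 0.101), and at 283 without pair 1, 2, 4, 7 or 8 (up to 0.0831). At 118 it held without any 1 pair (up to 0.0494), but not with the Mn2+ experiment added (0.149).

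Across the 330 positions the mean log2 changes in stops and mutations correlated with Pearson r = 0.733 at the same position number, and with r between 0.0510 and 0.156 when mutations were read 1 or 2 nt to either side. Positions share libraries and are not replicates, so this is a description only.

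**Figure D3:**
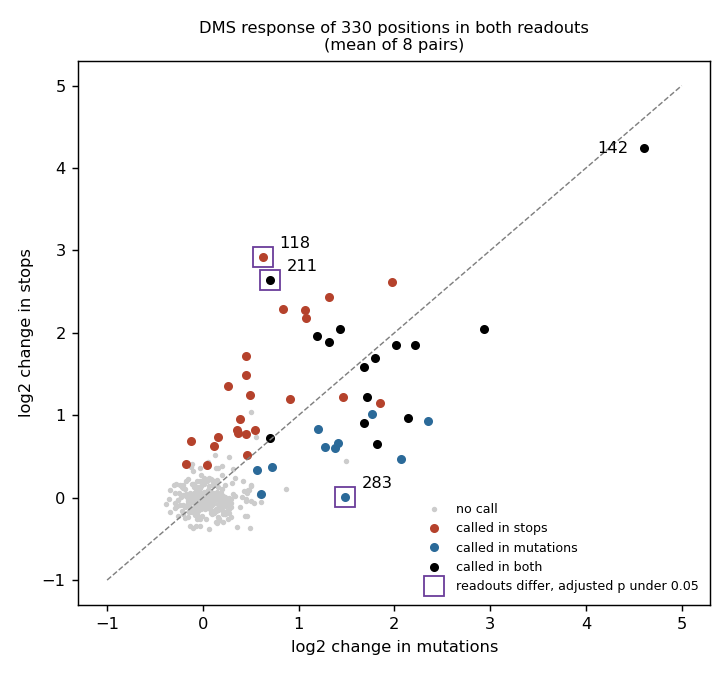
Mean log2 change in stops against mutations (8 pairs) for each of 330 positions, with the dashed line at equal change. The 15 positions called in both are black, and squares mark 118, 211 and 283, where the readouts differed at an adjusted p under 0.05.

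The balance between stops and mutations differed widely between pairs. Summed over the 50 called positions, the stop difference was 50.2 and 55.9 points in pairs 1 and 2, 89.6 and 83.3 in pairs 3 and 4, 4.25 and 12.0 in pairs 5 and 6, and 25.7 and 25.1 in pairs 7 and 8. The mutation difference over the same positions was 41.4 and 41.9 in pairs 1 and 2, 10.8 and 14.4 in pairs 3 and 4, 36.5 and 50.8 in pairs 5 and 6, and 56.4 and 56.9 in pairs 7 and 8. Mutations thus made up 45.2% and 42.8% of the sum in pairs 1 and 2, and 10.8% and 14.7% in pairs 3 and 4. They made up 89.6% and 80.9% in pairs 5 and 6, and 68.7% and 69.3% in pairs 7 and 8. Without position 142 these parts ran from 9.08% in pair 3 to 90.7% in pair 5. The denominators of the fractions are not given in the sources used here, and the 50 positions were chosen from the same values, so these percentages describe the pairs only. The kind of reverse transcription of each pair is unknown, and its part in the balance was not tested.

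At 142, pairs 3 and 4 had the highest stop fractions with DMS, 27.7% and 31.7%, and the lowest mutation fractions, 4.68% and 5.40%. In the other 6 DMS libraries stops lay between 2.83% and 7.91% and mutations between 13.2% and 15.2%. Position 327 showed the same order. Its DMS stop fractions were 4.42% and 4.35% in pairs 3 and 4 and at most 0.789% elsewhere, and its mutation fractions 0.620% and 0.619% in those pairs and at least 2.63% elsewhere.

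At 79 and 83 pairs 1 and 2 went with pairs 3 and 4. With DMS, stops at 79 were 4.64% to 6.11% in pairs 1 to 4 and 0.805% to 0.970% in pairs 5 to 8, and mutations were 0.122% to 0.714% and 2.87% to 3.28%. Stops at 83 were 4.47% to 6.05% in pairs 1 to 4 and 0.769% to 1.67% in pairs 5 to 8, and mutations were 0.152% to 0.275% and 1.95% to 2.39%. Mutations at 83 were not called over the 8 pairs (limma, adjusted p = 0.217), nor at 79 (adjusted p = 0.0517). At 118 mutations were at or under 0.878% with DMS in pairs 1 to 8, with the largest rises in pair 1, from 0.135% to 0.878%, and pair 2, from 0.245% to 0.694%.

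**Figure D4:**
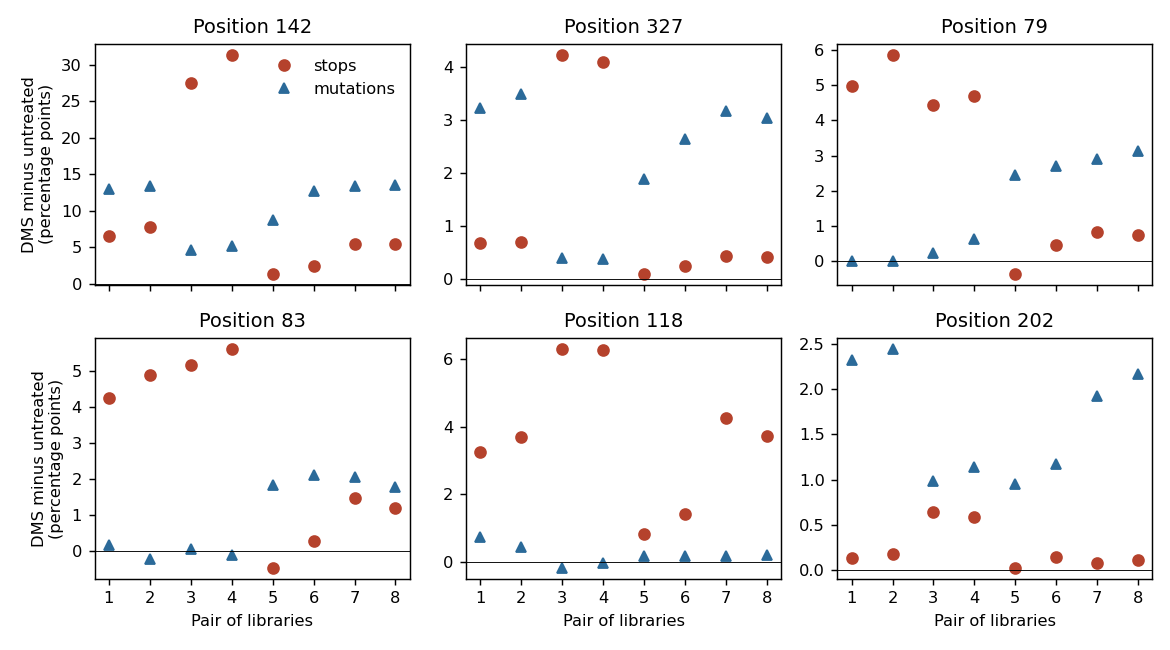
DMS minus untreated, in percentage points, of stops (circles) and mutations (triangles) in each of 8 pairs at 6 positions. Pairs 3 and 4 are high in stops and low in mutations at 142 and 327, and pairs 1 to 4 are so at 79 and 83, while at 118 the mutation differences run from -0.181 to 0.743 points, below the stop difference in every pair.

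Within the sets of library names the directions of the mean changes held at most of these sites. The mean stop difference at 142 was 18.3 points over pairs 1 to 4, 1.91 over pairs 5 and 6, and 5.44 over pairs 7 and 8, and the mutation difference was 9.06, 10.7 and 13.5. At 118 the stop difference was 4.88, 1.11 and 3.99, and at 327 the mutation difference was 1.87, 2.26 and 3.10, in the same order. At 83 the stop difference was 4.97, -0.0981 and 1.33, and of pairs 5 and 6 only pair 6 rose. The means over pairs 1 to 4 hide a split at 142 and 327. Stops at 142 rose by 6.57 and 7.78 points in pairs 1 and 2 and by 27.5 and 31.3 in pairs 3 and 4. Mutations at 327 rose by 3.23 and 3.49 points in pairs 1 and 2 and by 0.392 and 0.382 in pairs 3 and 4.

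Averaged over all 330 positions, the changes were slight. The mean mutation difference was 0.123 points ± 0.0572 (SD, n = 8 pairs) and above 0 in 8 of 8 pairs (exact two-sided sign-flip permutation test, p = 0.00781, the smallest this test allows; 0.0313 after adjustment over 4 such tests). The mean stop difference was 0.09998 points ± 0.131, above 0 in 6 of 8 (exact p = 0.0859, adjusted 0.0859). Both tests against 0 were chosen after the values were seen. Like the tests against the other positions, they take the 8 pairs as independent, which is not known. The other 18S positions had means of 0.0764 points in mutations and 0.0639 in stops. The region exceeded them by 0.0466 points ± 0.0449 in mutations and by 0.0360 ± 0.0456 in stops, each in 6 of 8 pairs, and neither difference passed the threshold (exact permutation p = 0.0547 and 0.0625, adjusted 0.0833 for both). By set, the excess in stops was 0.0420, 0.0553 and 0.00491 points and in mutations 0.0469, 0.0177 and 0.0748.

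The calls depended on single pairs to a degree. Without pair 5 there were 44 stop calls and 18 mutation calls, and without pair 4 there were 29 and 20. Stop calls fell to 19, 22, 23, 24 and 25 without pairs 1, 2, 3, 7 and 8, and mutation calls to 17, 14 and 12 without pairs 6, 7 and 8. Without pair 1 a single stop position, 88, was called lower. In stops, the calls at 142, 118, 103, 42 and 327 held without any 1 pair, though 327 was lost at a pseudocount of 1%. Those at 83, 78, 228 and 286 were each lost without 5 or 6 of the pairs taken singly (limma, adjusted p up to 0.0605, 0.0822, 0.111 and 0.0760), and that at 79 without pair 1 (0.0511). In mutations the calls at 142, 327, 202, 179 and 78 held without any 1 pair, while 191, 312, 201 and 261 were lost without 4 to 6 of the pairs (up to 0.0665, 0.105, 0.0604 and 0.0728) and 283 without pair 8 (0.0535). At a pseudocount of 0.01% mutations at 78 (limma, adjusted p = 0.0671) and 312 (0.0607) lost their call. Stops at 228 lost theirs at pseudocounts of 0.01% (0.0517) and 1% (0.0626). In the unpaired fit stops at 286 (0.744) and mutations at 283 (0.197) were not called. Fitted in percentage points, 7 of the 10 named stop rises lost their call, as did mutations at 191 and 312. The stop rises were those at 142 (limma, adjusted p = 0.141), 83, 79, 78, 228, 327 (0.221) and 286.

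The Mn2+ experiment gave a further pair without and a further pair with Mn2+, made with SSIII, which did not enter the calls. With 1 library per condition its values have no test. Its background was higher, with a mean untreated stop fraction over the 330 positions of 0.606% without and 1.72% with Mn2+, and a mean untreated mutation fraction of 1.92% and 1.43%. Of the 39 positions called in stops, 38 were higher with DMS without Mn2+, where 52.7% of the 330 positions and 38.8% of the 18S positions with a value were higher, and 29 with Mn2+ (43.9% and 37.9%). Of the 26 called in mutations, 22 were higher without Mn2+ (49.1% of the 330 and 47.1% of those with a value) and 23 with Mn2+ (56.1% and 45.3%). The 18S positions with a value numbered 1592 without and 1734 with Mn2+ in stops, and 1719 and 1840 in mutations. With Mn2+, stop fractions were 0 at 9.39% of the 330 positions untreated and 24.2% with DMS, and mutation fractions at 7.88% and 22.7%.

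Several stop sites stood higher in the pair without Mn2+ than in any of the 8 pairs. Position 79 went from 0.400% to 12.4%, 228 from 8.95% to 21.8% and 211 from 0.718% to 11.4%. With Mn2+ the same positions went from 1.5% to 2.99%, from 7.90% to 7.48% and from 4.68% to 5.21%. Position 118 went from 0.213% to 3.34% without and from 0.595% to 2.99% with Mn2+, and its mutation fraction from 1.07% to 2.47% and from 0% to 4.40%. At 327 mutations went from 0.498% to 5.29% and from 0.476% to 4.45%. At 202 they went from 0.980% to 4.81% and from 1.43% to 2.69%.

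**Figure D5:**
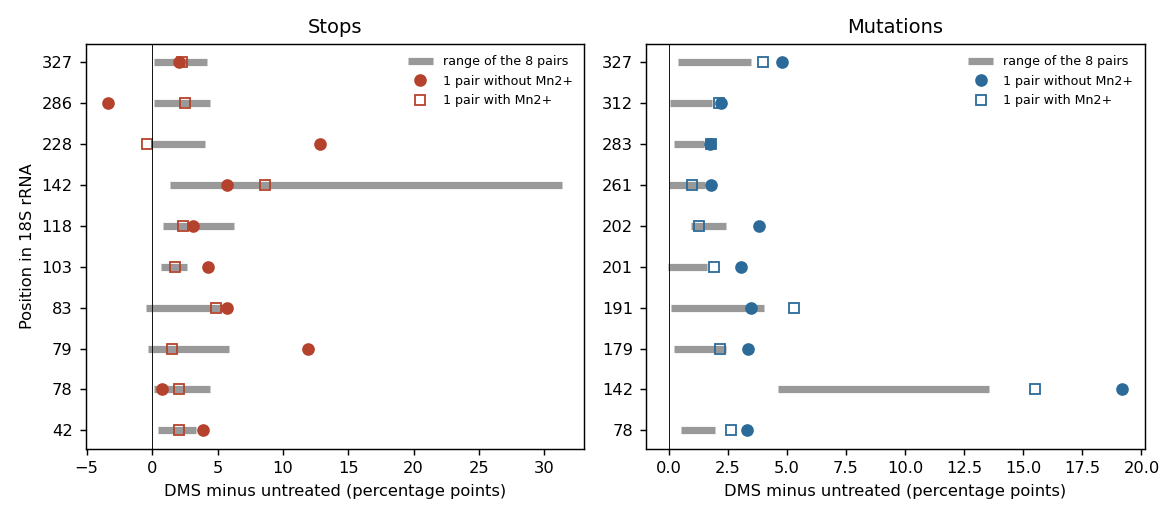
DMS minus untreated in percentage points at the 10 positions with the largest mean rise in stops (left) and mutations (right). Grey bars span the 8 pairs, filled circles are the 1 pair without Mn2+ and open squares the 1 pair with Mn2+; without Mn2+, stops at 83, 79, 103, 42 and 228 lie above the range of the 8 pairs and 286 below it, and mutations lie above it at all but 191. With Mn2+, stops at 228 lie below the range, and mutations at 142, 327, 191, 78, 312, 201 and 283 above it.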

How the data were processed

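The authors deposited 1 table with a stop fraction and a mutation fraction per library and position. Bowtie2 and cutadapt are named in the submitters' processing notes. Their versions, the reference sequence, the rule for counting an event and the denominators are not given in the sources used here. Each of these could change every value. Fractions were multiplied to percent.

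Libraries were matched through the table's own columns. Of 20 libraries on 18S, 4 match 1 sample each, as the only ones of the Mn2+ experiment. The other 16, 8 untreated and 8 DMS, match the treatment groups of the 16 lettered samples, which are as many, but no single sample. A further 9 library names on another target were not used. No 2 libraries had identical values. DMS libraries were paired with the control the table names for them.

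Paired differences of log2(percent + 0.1) were fitted in limma 3.58.1 (R 4.3.3) with a variance trend, over all positions with a value in all 16 libraries, 1776 for stops and 1840 for mutations, with Benjamini-Hochberg adjustment. A fold change on this scale understates the change at low values. The fit was tested on simulated normal differences that were independent between pairs. Such data cannot show how often it calls falsely where pairs depend on each other. Mean differences were tested with exact sign-flip permutation over pairs. Python 3.11.15, pandas 2.3.3, numpy 2.4.6 and Matplotlib 3.10.9 were used.

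The named positions are, per readout, the 10 largest mean rises and 4 largest falls among called positions of the same direction in at least 7 pairs (no fall met this), the 4 highest untreated medians, and up to 4 differences between readouts each way. Alternatives were other pseudocounts, a minimum mean of 0.1%, leaving out each pair, an unpaired fit, percentage points, and adding the Mn2+ experiment; the set of library names as a random block was added after seeing the data. The region, lists and rules were chosen with earlier results of these data known.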

Additional observations from a re-analysis of the deposited data

Results flagged for a closer look

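Among 33 groups of 8 values examined, 6 held a value far from the other 7. A chance rate of about 1 in 20 takes independent groups. These groups share the same 8 pairs, so that rate cannot be applied to them. The mean stop fraction of the 330 positions was 0.763% in the untreated library of pair 4. The stop difference with DMS was -5.25 points at 172, -2.21 at 99 and -2.52 at 227 in that same pair. It was 4.40 points at 286 in pair 3, and the mutation difference was 1.45 points at 272 in pair 5.

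Among 27 values at named positions, 6 had a DMS difference of opposite sign without and with Mn2+. Each condition had 1 library and the difference was not tested. For stops at position 228, DMS minus untreated was 12.9 points without Mn2+ but -0.420 when Mn2+ was present. Stops at position 286 gave -3.36 without the metal against 2.50 in its presence, while stops at position 99 gave -0.987 against 0.876. The mutation fraction changed by 1.02 points without the metal and by -3.20 in its presence at position 272. Position 260 gave 0.910 against -0.189 in that order, whereas position 289 gave -0.276 against 0.256.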

How the results depend on the processing

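Depth is unknown and limits all values near 0. Counts of called positions were taken as unchanged within 1.5 times. Leaving out each pair gave 19 to 44 higher stop positions, 0 to 1 lower, 12 to 26 higher mutation positions, 1 to 2 positions with the stop response above and 0 to 2 with it below; the smaller number of pairs is part of that change. In percentage points 16 stop positions were higher. In the fit without the replicate block (unpaired), 30 stop and 19 mutation positions were higher. The difference between readouts had 1 position above and 0 below with a pseudocount of 0.01%, 2 below with a pseudocount of 1%, 0 below with a minimum mean of 0.1%, which removes 283, and 1 above and 2 below with the Mn2+ experiment added. The set of library names as a random block gave 38 higher stop and 26 higher mutation positions, and 2 with the stop response above. The estimated correlations within sets were 0.0094 in stops, 0.0025 in mutations and -0.0083 in the difference. This fit was therefore nearly the main one, and it does not allow for smaller groups of pairs inside a set.

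Without 1 pair, the excess of the region over the rest ran from 0.0269 to 0.0433 points in stops and from 0.0383 to 0.0548 in mutations, past the threshold without pair 1 or 8 in stops and without pair 4 or 6 in mutations (exact permutation p from 0.0313 to 0.0469). By the median over positions the mutation excess was -0.00321. In the Mn2+ experiment the mean stop difference without Mn2+ was 0.312 points (median 0.0190). With Mn2+ it was 0.00620, 0.3004 at positions above 0 in all 4 libraries, and 0 by the median. In mutations it was 0.126 without (median -0.00257) and 0.366 with Mn2+ (0.729 at positions above 0, median 0.0735). Mutations at 68, never called, had a log2 change of -0.0147 that ran from -0.0812 to 0.0469 without 1 pair, above 0 without pair 3 or 7 (0.0403), was 0.0539 with the Mn2+ experiment, and beside a mean difference of 0.0385 points; the cause was not tested.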
